A study of Drosophila melanogaster with 384 samples.

Results

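The distal antenna paralogs dan (FBgn0039286) and danr (FBgn0039283) lie on the plus strand of chromosome arm 3R of the fruit fly, with 44479 bp between them. Their chromatin was described in single-cell ATAC-seq, in which the transposase Tn5 inserts adapters into accessible DNA, of GFP-sorted cells of the eye-antennal disc. The locus was taken as every listed region that overlaps danr or dan, lies between them, or lies within 10 kb outside either gene. It holds 51 of the 68775 regions of the count table. dan was chosen by its counts per kb, which were high in these same cells, so the level of dan, its place among genes and its lead over danr are given as descriptions, with no test.

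All cells belong to 1 group. It is the reporter strain F2-B(sens)-GFP, genotype w;F2-B/CyO, in which an enhancer from an intron of senseless (sens) that Atonal targets drives GFP. The flies were raised at 25°C, 200 discs were pooled from larvae in the wandering stage of the third instar, and living GFP-positive cells were sorted into a tube and then loaded on a Fluidigm C1 device, which captures single cells in separate chambers. Such a reporter marks cells in which the enhancer is or recently was active, so the sorted cells are not a single cell type by definition. The labels name cells by number and give no animal, dissection or device run. The 72 cells of the count table, 18.8% of those the labels name, were therefore summed as 1 sample, with no test across cells. The others were not analysed here.

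Both genes encode nuclear proteins with a DNA-binding domain of the Pipsqueak type. In the antennal part of the disc they act downstream of homothorax and Distal-less to specify distal antennal structures, the third segment and the arista. In the eye part they act with eyeless and the retinal determination genes ahead of and within the morphogenetic furrow, the front of differentiation, and contribute to expression of atonal, the proneural gene of the R8 photoreceptor. An accessible region is a candidate regulatory element, but its accessibility alone does not tell which gene it serves.

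In the dm6 build, danr spans chr3R:25138072-25139903 as a single exon with 1 start site. dan spans chr3R:25184383-25192806, with 2 annotated start sites 628 bp apart and a long intron. The whole of dan lies inside an intron of lobo (FBgn0083946), a gene on the opposite strand that spans chr3R:25169565-25193776. The counts carry no strand, so accessibility of dan and of this intron of lobo cannot be told apart. A lncRNA gene, CR46098, ends just upstream of danr, and a second one, CR46474, covers much of the gap between the paralogs at chr3R:25140294-25156085. The count table lists mainly non-coding sequence: listed regions covered 72.2% of the span of dan, 31.5% of the span of danr and 68.6% of the locus, so most of the coding sequence was not measured. Some non-coding stretches, such as parts of CR46474, were not listed either.

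Sequences of the plus strand are shown for the DNA just upstream of each paralog and for stretches of the most accessible upstream regions, because they show how the DNA before the paralogs differs. Capitals mark matches to short cores of transcription factor motifs on either strand: GAGAGAG of GAGA factor, a protein that binds GA repeats; TGATAC of Sine oculis and Optix; TAATTA of homeodomain proteins; and CAGCTG, an E-box, the element bound by basic helix-loop-helix proteins. A match on the minus strand appears as its reverse complement. The 250 bases before the first start site of each gene are printed first (danr at chr3R:25137822-25138071, dan at chr3R:25184133-25184382). Windows of 300 bases follow, from the region next to dan (chr3R:25183616-25183915), from the distal region in the lobo intron (chr3R:25174088-25174387) and from the region in the gap (chr3R:25158577-25158876).
danr upstream: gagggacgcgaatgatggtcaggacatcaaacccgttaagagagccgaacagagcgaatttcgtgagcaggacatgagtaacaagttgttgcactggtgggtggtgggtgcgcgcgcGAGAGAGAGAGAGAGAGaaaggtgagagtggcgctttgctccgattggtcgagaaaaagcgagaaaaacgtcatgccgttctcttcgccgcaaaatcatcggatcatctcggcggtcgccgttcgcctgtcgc
dan upstream: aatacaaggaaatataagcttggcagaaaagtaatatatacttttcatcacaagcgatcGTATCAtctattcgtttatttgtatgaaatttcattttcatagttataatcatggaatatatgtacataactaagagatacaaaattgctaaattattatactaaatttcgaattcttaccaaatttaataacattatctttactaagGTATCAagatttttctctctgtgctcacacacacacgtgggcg
next to dan: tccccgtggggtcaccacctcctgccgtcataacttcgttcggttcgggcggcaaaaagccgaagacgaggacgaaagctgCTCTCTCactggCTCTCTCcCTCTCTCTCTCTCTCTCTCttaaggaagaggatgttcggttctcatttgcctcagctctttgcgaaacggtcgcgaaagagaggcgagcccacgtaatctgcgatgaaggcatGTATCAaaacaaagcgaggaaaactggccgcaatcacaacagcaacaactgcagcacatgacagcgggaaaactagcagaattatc
lobo intron: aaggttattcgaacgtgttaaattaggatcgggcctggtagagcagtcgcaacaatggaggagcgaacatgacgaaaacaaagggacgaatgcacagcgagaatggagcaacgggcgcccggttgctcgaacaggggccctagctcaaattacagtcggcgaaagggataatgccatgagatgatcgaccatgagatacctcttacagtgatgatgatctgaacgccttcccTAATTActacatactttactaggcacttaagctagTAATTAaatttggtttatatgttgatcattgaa
gap: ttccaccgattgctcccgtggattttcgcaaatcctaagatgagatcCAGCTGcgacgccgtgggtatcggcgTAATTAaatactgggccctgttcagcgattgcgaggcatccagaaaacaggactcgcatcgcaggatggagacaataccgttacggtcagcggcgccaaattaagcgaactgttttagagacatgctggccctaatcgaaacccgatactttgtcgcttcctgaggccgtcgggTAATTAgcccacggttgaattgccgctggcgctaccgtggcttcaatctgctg

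The DNA directly before danr holds an 18-base run of alternating G and A, which gives 6 overlapping matches to GAGAGAG. This run and most of the 250 bases before danr lie in the exon of the lncRNA gene CR46098 (chr3R:25137701-25138001). The 250 bases before dan hold none. They hold 2 matches to TGATAC, the nearer of which begins 43 bases before the start site, and danr has none in its 250 bases. Of the 13968 protein-coding genes, 5.36% hold GAGAGAG and 6.75% hold TGATAC in the same stretch. At dan, the region with both start sites holds 5 matches to GAGAGAG, none of them within these 250 bases. The bases before the second start site of dan were not searched on their own. Farther upstream, the window 468 to 767 bases before the first start site holds a 20-base run of alternating C and T. This is the same repeat on the other strand, and the window also holds 1 match to TGATAC. The lobo intron window holds 2 matches to TAATTA, and the gap window holds 2 matches to TAATTA and 1 to CAGCTG. A match is a description of the sequence and not evidence of binding.

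Accessibility was concentrated around dan and upstream of it. Summed over the 72 cells, the 51.3 kb of listed sequence in the locus held 4.95 counts per kb (exact 95% Poisson interval 4.36 to 5.60), against 2.49 counts per kb over all listed regions. A count of at least 1 was present in 63 cells (87.5%, exact binomial interval 77.6 to 94.1). The locus took 0.129% of all counts with 0.0646% of the listed bases. Of its 51 regions, 10 reached 10 or more counts (19.6%), while 6.25% of all listed regions did so. At the low end, 6 regions had no count (11.8%), against 18.4% of all listed regions. A region with no count in any cell is not shown to be closed, since 0 counts allow a sum of up to 3.69 by the exact interval. Intervals cover counting error only. Duplicates were removed by the authors, but the libraries carried no molecular identifiers.

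**Figure D1:**
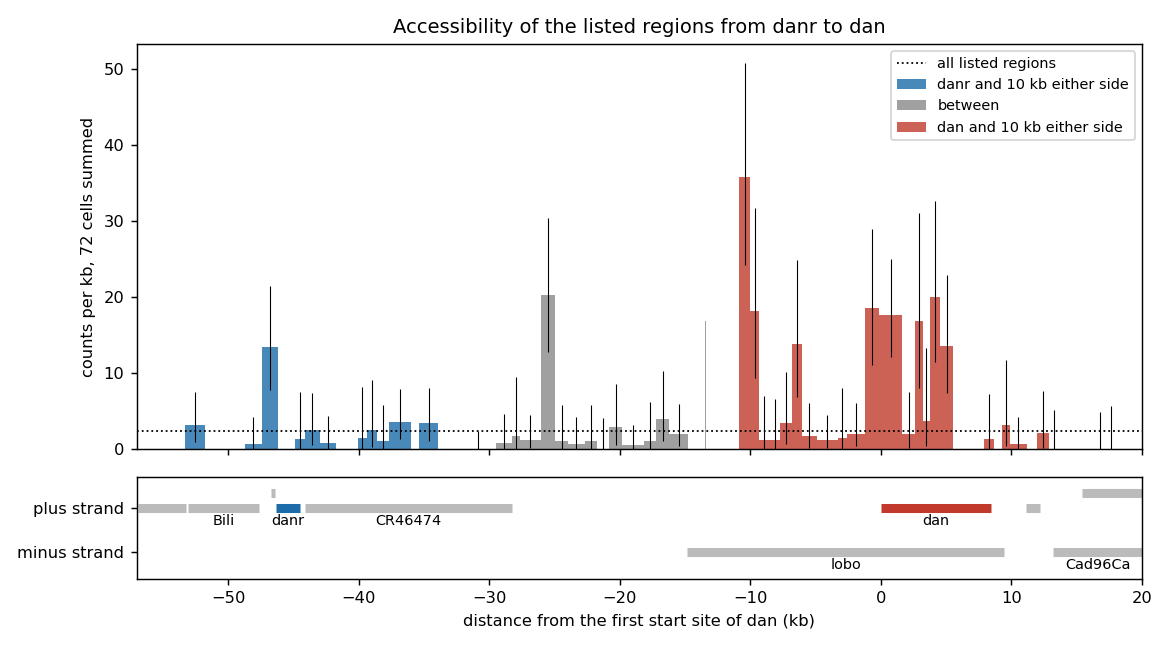
Counts per kb of each of the 51 listed regions, summed over 72 cells, against the distance in kb from the first start site of dan. Bar width is region length, thin lines are exact 95% Poisson intervals (drawn for regions of at least 200 bp), the dotted line is the value over all listed regions, and the lower panel shows gene spans by strand. The tallest bars stand about 10 kb before dan, in the gap about 25 kb before dan, and from just before dan into its intron, and danr has a single tall bar at its start site.

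Together, the 8 most counted regions made up 64.6% of the signal of the locus on 16.7% of its listed length, and 52 cells had a count in at least 1 of them. Of these 8 regions, 6 lie in or within 10 kb of dan, 1 lies at the start site of danr and 1 lies in the rest of the gap. The 41 regions outside the 10 with most counts had 0 to 6 counts each and 69 counts in all, and none was covered in more than 5 cells.

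At dan, the promoter region had a count in the largest number of cells, 23, followed by 21 for the region 10 kb upstream. The lengths of these regions are 1807 and 866 bp, and their counts per kb 17.7 and 35.8. The region with both start sites of dan (chr3R:25184224-25186030, 5′ UTR and intron) held 32 counts (21.9 to 45.2) in 23 cells, with 17.7 counts per kb. No cell had more than 2 counts there. Among all listed regions it was at percentile 97.5 by counts per kb, and among regions within 500 bp of a start site at percentile 94.8. The region that adjoins it upstream (chr3R:25183200-25184223) held 19 counts (11.4 to 29.7) in 18 cells, with 18.6 counts per kb and percentile 95.6 among regions near start sites. Thus 2 adjoining regions around the first start site of dan were accessible, and 8 cells had a count in both.

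Inside the intron of dan, accessibility formed a second group of regions 2.60 to 5.56 kb after the first start site. The most accessible one (chr3R:25188118-25188913) held 16 counts (9.15 to 25.98) in 13 cells, with 20.1 counts per kb and percentile 98.96 among distal regions, which are regions farther than 500 bp from any start site. Its right-hand neighbour (chr3R:25188914-25189939), which runs from the intron into the second exon, held 14 counts (7.65 to 23.5) in 8 cells. A smaller region of the same intron (chr3R:25186986-25187575) held 10 counts in 9 cells. The remaining 2 regions wholly within the intron had 2 counts each.

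The highest value per kb of the locus was 10 kb upstream of dan, inside the intron of lobo. The region chr3R:25173522-25174387, which lies 9996 to 10861 bp before the first start site of dan, held 31 counts in 21 cells. Its 35.8 counts per kb (24.3 to 50.8) placed it at percentile 99.9 among distal regions. Most of these cells had 1 count (15 cells), 4 cells had 2, and the largest count in a cell was 5. Its neighbour toward dan (chr3R:25174388-25175046) held 12 counts (6.20 to 20.96) in 10 cells, with 18.2 counts per kb and percentile 98.7. The pair shared 4 cells. Another region of this intron (chr3R:25177533-25178323), 6060 to 6850 bp before dan, held 11 counts in 8 cells, and the regions between it and dan's adjoining upstream region had 1 to 3 counts each.

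In the rest of the gap between the paralogs, outside the 10 kb flanks of both, 1 region stood out. The intergenic region chr3R:25158312-25159445 held 23 counts (14.6 to 34.5) in 14 cells, with 20.3 counts per kb and percentile 98.97 among distal regions. It lies 24938 to 26071 bp before dan and 20.2 to 21.4 kb after the start site of danr. It is thus nearer to danr, but distance alone does not tell which paralog it serves. Its counts were unevenly spread over these cells: 10 cells had 1 count, 1 cell had 2 and 3 cells had 3 or more, with a largest count of 5. Counting each cell at most once left 14. The other regions of the gap outside these flanks had 0 to 4 counts each.

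At danr, the start site was the only region with 10 or more counts. The region with the start site (chr3R:25136968-25138233), which also holds the whole lncRNA gene CR46098, had 17 counts (9.90 to 27.2) in 11 cells, with 13.4 counts per kb and percentile 88.9 among regions near start sites. It gave 39.5% of all counts within 10 kb of danr on 9.88% of the listed length. Every other region within 10 kb of danr had 1 to 6 counts. The highest of them, with 6 counts, and the next distal one, with 5, lie in the exon of CR46474, whose 9 regions held 20 counts and 1.88 counts per kb (1.15 to 2.90).

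The paralogs were compared over the gene and 10 kb on either side. The 25 regions of dan, 22.2 kb in length, held 7.56 counts per kb (6.46 to 8.80). The 11 regions of danr held 43 counts (31.1 to 57.9), or 3.36 counts per kb (2.43 to 4.52). The ratio was 2.25 (95% counting interval 1.60 to 3.23). The 15 regions left between these windows held 43 counts, or 2.64 counts per kb (1.91 to 3.56). At dan, 8 of the 25 regions had 10 or more counts, and at danr 1 of the 11, against 6.25% of all listed regions.

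The lead of dan was largest over distal regions. There the ratio was 3.10 (1.85 to 5.50), with 6.52 counts per kb at dan and 2.11 at danr. Over regions near start sites, those of neighbouring genes included, it was 2.08 (1.28 to 3.46). For the region with the start sites of dan against the region with the start site of danr, it was 1.32 (0.711 to 2.53), and for regions that overlap the gene itself 1.33 (0.787 to 2.36), with 11.9 counts per kb at dan and 8.96 at danr. The intervals cover counting error only and are not a test of the lead. Whether the distal and start-site ratios differ was not tested.

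The flanks of dan were unequal. Up to 10 kb upstream, 11 regions held 86 counts, or 8.04 counts per kb (6.43 to 9.92). Up to 10 kb downstream, 7 regions held 5 counts, or 0.993 counts per kb (0.322 to 2.32), and 4 of them had no count. At danr, the upstream flank had 2.09 counts per kb (0.767 to 4.55) in 2 regions and the downstream flank 2.40 (1.44 to 3.74) in 7 regions. Regions that overlap a gene were counted with the gene and not with its flank. At danr these include the start-site region, with 17 counts, which reaches from -1.104 to 0.161 kb of the start site. The like stretch at dan, 160 to 1183 bp before its start site and with 19 counts, was counted as flank. The upstream values of the paralogs are therefore not of like stretches. The upstream value of dan rests in part on the most accessible region, which reaches into the 10 kb by 5 bp. Without it, dan had 6.42 counts per kb and the ratio to danr was 1.91 (1.35 to 2.76). At the outer limits, the first region inside on the danr side had 5 counts and the next one outside had 1, while the last region inside on the dan side had 0 and the next one outside had 13.

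**Figure D2:**
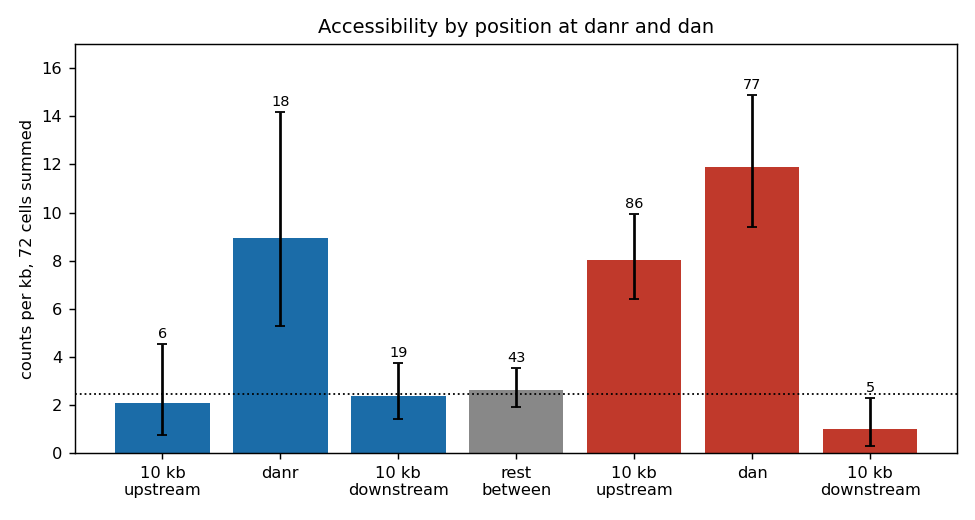
Counts per kb, summed over 72 cells, in regions 10 kb upstream of, at and 10 kb downstream of danr (blue) and dan (red), and in the rest of the gap (grey). Regions that overlap a gene are counted with the gene, so the start-site region of danr is not in its upstream flank. Lines are exact 95% Poisson intervals, numbers are summed counts, and the dotted line is the value over all listed regions. dan and its upstream flank stand at 11.9 and 8.04 counts per kb, danr at 8.96, and all other stretches at 2.64 or below.

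More cells had counts at dan than at danr. The listed sequence is longer at dan (22.2 kb) than at danr (12.8 kb). A longer set can reach more cells at the same counts per kb, and these numbers were not adjusted for length. A count within dan or its 10 kb flanks was present in 56 of 72 cells (77.8%, 66.4 to 86.7), and one at danr in 25 cells (34.7%, 23.9 to 46.9). Both were covered in 21 cells, dan alone in 35, danr alone in 4 and neither in 12. The 21 cells are 37.5% of the cells with a count at dan and 84% of those with a count at danr. At dan, 15 cells had 1 count, 10 had 2, 11 had 3, 9 had 4 and the largest count was 8. At danr, 16 cells had 1 count, 3 had 2, 5 had 3 and 1 had 6. Over cells the variance was 1.38 times that of counting error at each cell's depth for dan. It was 1.97 times for danr and 2.08 times for the rest of the gap. Cells thus differed by more than the intervals, which cover counting only, allow for.

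The depth of a cell, taken as its total counts in listed regions, went only partly with these cell numbers. Cells with a count anywhere in the locus had a median of 2772 counts in all regions, and the 9 cells without one had 1955. In the 24 deepest cells all 24 had a count at dan and 9 at danr. In the middle 24 cells the numbers were 15 and 10, and in the 24 shallowest 17 and 6. Per 1000 counts of the cells, dan had 0.880, 0.561 and 1.04 counts from shallowest to deepest, and danr 0.255, 0.187 and 0.222. A cell without a count is thus not shown to have a closed locus.

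**Figure D3:**
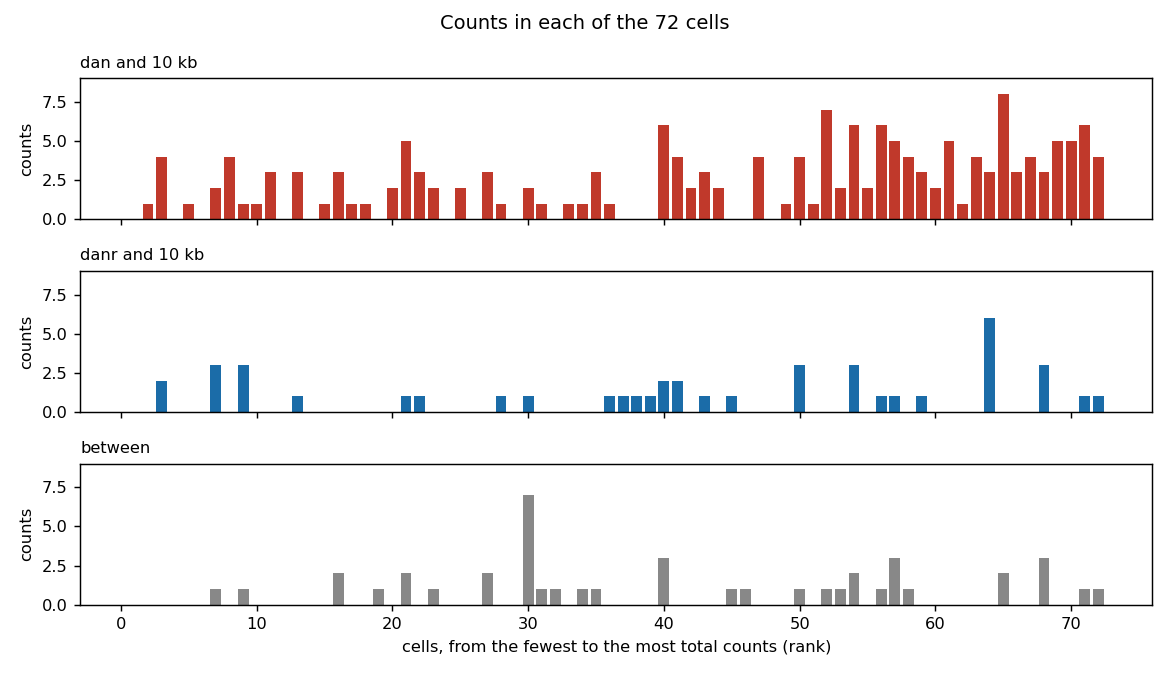
Counts in dan and its 10 kb flanks (top), danr and its 10 kb flanks (middle) and the regions between (bottom) in each of the 72 cells, ordered by total counts. dan is covered in 56 cells, with up to 8 counts, and in every one of the 24 deepest cells, and danr is covered in 25 cells scattered over the depth range.

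Pairs of single regions shared few cells in number, although these could be a large share of the cells of the smaller region. The start-site regions of the 2 paralogs shared 6 cells, which is 54.5% of the cells with a count at the start of danr and 26.1% of those at the start of dan. The gap region shared 7 cells with the start of dan and 5 with the start of danr. The distal region in the lobo intron shared 6 cells with the start of dan, 3 with the start of danr and 7 with the most accessible region of the dan intron. With so few counts per cell, these overlaps are descriptions and do not show which regions open together. Across the 72 cells, the share of counts in dan and its flanks followed that in danr and its flanks with Pearson's r of 0.32. Of the 953 protein-coding genes with at least 100 counts, those most like dan were Glut1 (0.47), gish (0.42) and chm (0.41), and those most like danr were kek5 (0.49) and the pair Ada2a and Polr2D (0.45), which share 1 set of regions. All these points come from 72 sparse cells of 1 sample, and such values are no finding.

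Against other genes, dan stood high and danr near the middle. Over the gene and 10 kb on either side, dan was at percentile 95.1 of the 13838 protein-coding genes with a listed region, and danr at 57.4. The median gene had 2.99 counts per kb and the highest 10% began at 6.19. For regions that overlap the gene only, danr was at percentile 90.2 and dan at 94.98. Windows of neighbouring genes overlap, so a count can enter several genes.

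Among the 7 genes listed for a Pipsqueak-type domain, dan was the second most accessible. pipsqueak (psq), the founding member, had 8.31 counts per kb (7.61 to 9.05). Eip93F, an ecdysone-induced regulator, had 3.70, danr 3.36 and ribbon (rib), a regulator of epithelial morphogenesis, 2.96. The bric a brac paralogs, which pattern leg and antenna, had 2.72 (bab1) and 1.65 (bab2). In all, 4 of the 7 genes were above the median gene, with a median of 3.36 counts per kb. Both values include dan, which was chosen by its counts, and the median is the value of danr itself.

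Genes known to act with or beside dan and danr were mostly near the middle. Of the 18 listed, 11 were above the median gene, with a median of 3.25 counts per kb. Sine oculis (so), a retinal determination factor, had the most (6.81, 5.80 to 7.94). It was followed by sens (5.81), which marks R8 and whose enhancer drives the reporter used to sort these cells. The reporter carries a further copy of this enhancer, so the value of sens is not independent of the strain and the sort. The share of that copy in the counts was not tested. The retinal genes dachshund (dac), eyes absent (eya), twin of eyeless (toy), Optix and eyeless (ey) had 4.39, 4.02, 3.59, 3.52 and 3.01 counts per kb, and atonal (ato) had 3.12. Of the antennal genes, spalt major (salm) had 3.99 and homothorax (hth) 3.78, while cut (ct), Distal-less (Dll) and spineless (ss) had 2.80, 2.66 and 2.60, below the median gene. The lowest was hunchback (hb) with 2.07.

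**Figure D4:**
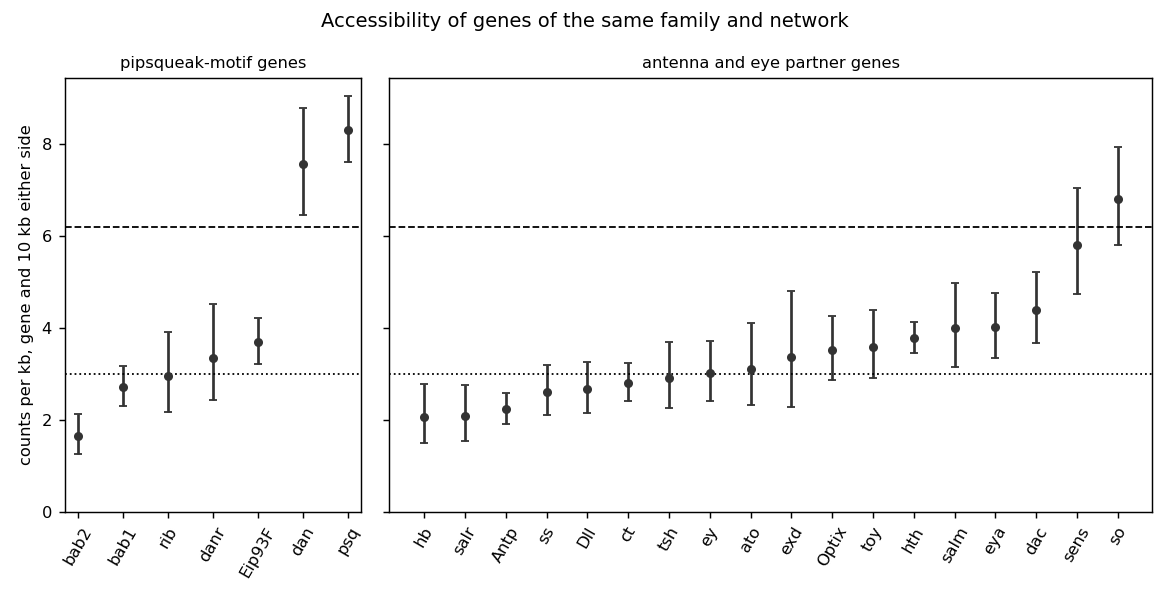
Counts per kb of the gene and 10 kb on either side for the 7 genes of the Pipsqueak family (left) and the 18 antenna and eye partner genes (right), with exact 95% Poisson intervals. The dotted line is the median protein-coding gene and the dashed line the start of the highest 10%. psq, dan and so stand above the dashed line, and danr stands near the dotted line.

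Markers were read over the same windows. All 4 photoreceptor genes (gl, elav, chp, futsch) were above the median gene, with 4.05 to 10.2 counts per kb, and 4 of 6 genes of R8 and the furrow were (1.97 to 6.73). Among the latter 4 is sens, whose enhancer drives the reporter used for the sort. Of the antennal genes 1 of 4 was above the median gene (2.60 to 3.99), of peripodial and head vertex genes 1 of 2, of glial genes 1 of 2 (repo, the glial identity gene, at 6.25 and moody at 2.77), and of hemocyte genes 0 of 3 (1.48 to 2.43). twi of adepithelial cells had 2.18 and Oli of brain 2.14. No marker had a sum of 0. Accessibility near a gene is not its expression, and the part of glial or other cells in the counts of dan and danr was not tested.

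In sequence, the regions of the locus held the TGATAC core more often than regions of like length. It occurred in 20 of 51 regions (39.2%), and on average in 20.6% of all listed regions within 10% of the same length. It was present in 8 of 25 regions at dan (32%), 5 of 11 at danr (45.5%) and 7 of 15 between them (46.7%). The matches were not limited to accessible regions: 3 of the 8 regions with most counts held one, and so did 17 of the other 43. GAGAGAG occurred in 4 regions of the locus (7.84%, against 13.8% of regions of like length), and all 4 were among the 8 with most counts. For regions as long as these 8, the mean share was 14.9%. The 4 regions were the start-site region of each paralog, the region next to dan and the region at the end of the dan intron. All but the last of these lie within 500 bp of a start site, and the background was matched for length but not for position. The GA runs of 2 of the 4 regions are those printed before danr and next to dan.

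The other cores lay on either side of their background. TNGCGTG, the core of Spineless and Tango, occurred in 35.3% of the regions against 23.5%. Of the 8 regions with most counts, 1 held this core (12.5%, against 24.9% for regions of like length). Of the E-boxes, CAGGTG occurred in 25.5% against 25.8%. The E-box printed above, CAGCTG, occurred in 21.6% against 32.7%. A further E-box, CAGATG, occurred in 31.4% against 32.8%. The homeodomain core TAATTA occurred in 47.1% against 51.7%. ACCGGTT, the core of Grainyhead, occurred in 5.88% against 3.60%. GC content was alike in the 3 stretches, with medians of 42.7% at dan, 41.5% at danr and 42.5% between them, and 40.6% over all listed regions.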

How the data were processed

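The authors deposited raw counts, whole numbers that were not normalised, for 68775 cisTarget regions in each cell. The paper describes a larger set of cisTarget regions. How those in this count table were selected is not given in the sources used here, so all values per kb, ratios and percentiles cover listed regions only. These regions are segments of mostly non-coding DNA whose borders follow how well the sequence is kept in related flies. According to the submitters' processing notes and the study's methods, adapters were trimmed, reads were mapped to the FlyBase release 6 genome (dm6) with Bowtie2 2.2.5, SAMtools 1.2 and Picard were used and duplicates removed, and cells were kept by hand from aggregate plots. Beads removed fragments shorter than 150 bp after amplification. For the study's bulk samples, fragments per region were counted with featureCounts. For the single cells, the counting tool, whether reads or fragments were counted, and any shift for the transposase are not given in the sources used here. Selecting cells by eye from aggregate plots can favour cells with high signal at the sites plotted.

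Each of the 72 cell columns matched 1 sample title, with 0 columns unused. Totals per cell ran from 908 to 5892 counts (median 2694.5), and 2 cells had fewer than 1000. At this depth 79.9% of the entries above 0 in the locus equal 1, against 84.5% over all listed regions. The last listed region of 3R ends at 32066329, within the arm length of 32079331 in the reference. Table starts count from 0 and are printed from 1. Genes came from Ensembl release 115 (BDGP6.54), and sequences from the RefSeq release 6 genome by coordinate.

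Regions overlapping a span by at least 1 bp were summed whole over cells and divided by their length. Sums have exact 95% Poisson intervals, shares exact Clopper-Pearson intervals, and ratios intervals from the binomial share of both sums (Python 3.11.15, scipy 1.17.1). Cores were searched on both strands, overlapping matches included. Each printed window of 300 bases is the stretch of its region outside annotated exons with most matches. Named were dan, danr, genes overlapping the locus, the 8 regions with most counts, and the genes of the lists. The members and lists were chosen with earlier results of these data known. The functions were tested on simulated data. Alternatives tried were the flank, the overlap, the weight of cells and the cells used.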

Additional observations from a re-analysis of the deposited data

How the results depend on the processing

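The lead of dan over danr kept its direction in all 10 alternatives tried, with ratios from 1.33, for regions that overlap the gene only, to 2.34. dan was chosen by this level, so its direction is no support. The level of dan changed from 7.56 counts per kb to 5.94 when a cell could add no more than 1 count to a region, 9.34 with flanks of 2 kb, 11.9 with the gene only, 6.03 with every region given to the nearer gene, and 6.42 with regions wholly inside the span. Leaving out the region cut by the edge, an alternative chosen after seeing the data, also gave 6.42. danr changed from 3.36 to 8.96 with the gene only. Cells with a count at dan were 46, 44 and 37 with flanks of 5 kb, of 2 kb and with the gene only, those at danr 14, 13 and 11, and those with both 11, 10 and 9, since fewer regions were counted. The locus had 3.88 counts per kb, against 4.95, under the same limit of 1 count per cell and region. dan was at percentile 90.2 with flanks of 5 kb, and danr at 90.2 with the gene only and 86.3 with 5 kb upstream plus introns. For the other 43 values from alternatives over these 9 results, changes stayed within the counting interval. No paired analysis was possible because all cells form 1 group. With 1 sample, no value has a replicate check. Depth limits single regions most, since 18 of the 51 regions of the locus held a single count and 6 held none. Low counts are not particular to the locus: of all 68775 listed regions, 24105 held a single count and 12640 held none.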
